A study of Mus with 17 samples.

Results

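Complement is a set of plasma and membrane proteins that mark, lyse and help to clear microbes, dying cells and debris. It is started by C1q bound to a surface (the classical pathway), by mannose-binding lectins (the lectin pathway) or by slow spontaneous activation of C3 (the alternative pathway); all of them cleave C3 and then C5, release the attractant peptides C3a and C5a, and end in a pore of C5b to C9. Hepatocytes make most of the circulating complement proteins, whereas C1q, properdin and the receptors of C3a and C5a come largely from macrophages and other myeloid cells, and membrane regulators protect the body's own cells.

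The genes described here are 33 listed complement components, receptors and regulators, of 24937 genes with a value in whole liver. All 33 were found by symbol and all 33 passed the low count filter. They were split from general knowledge into 20 that hepatocytes make, 7 that macrophages make and 6 of other or several sources; whole liver does not separate the cells, and fewer cells of a type and less RNA per cell cannot be told apart. RNA was sequenced from 17 male mice of the genotype C57BL6/JBomTac, 1 library per mouse. The western diet group, 8 mice, had eaten that diet for 52 weeks and drunk water holding fructose (42 g/L), which the labels describe as a model of advanced steatohepatitis. The chow group, 9 mice of matched age, received a standard chow diet and water without additives. Both groups were fasted overnight before they were killed. A number for the age, and cages or batches, are not given in the labels. The source name of all 17 samples reads western diet; the treatment field and the design of the series give 8 and 9, and the treatment field was used.

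Libraries held 3604212 to 9071908.5 counts. Levels are given as CPM, the counts of a gene relative to its library's total after scaling with TMM factors, and 3 counts amounted to 0.331 to 0.832 CPM. Levels are compared between mice for 1 gene and not between genes, since no transcript lengths were used here. Hepatocyte markers were high in every library, with 11597 to 19447 CPM summed over 7 genes on western diet and 14683 to 20279 CPM on chow. Of these 7, 6 had a log2 difference below 0, and 1 passed the test, as lower on western diet. Western diet replicate 5 and chow replicate 2 carried transcripts of pancreatic acinar cells, at 4039.6 and 12249 CPM summed over 7 genes against 108 to 434 CPM in the other 15 libraries. Of the other marker lists, all 6 stellate cell genes and all 4 bile duct genes rose on western diet, 2 endothelial genes rose and 2 fell of 5, and none of 4 B cell genes passed the test (edgeR, unadjusted p of 0.100 to 0.564).

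The calls differed between the source lists, which were chosen with earlier results of these data known. The macrophage-made C1q chains, the receptors of C3a and C5a and properdin were higher on western diet, by 1.73-fold to 3.59-fold, while 18 of the 20 hepatocyte-made members did not pass the test and the other two, C8b and Mbl2, were 1.61-fold and 1.35-fold lower. The membrane regulator Susd4 fell most, 7.41-fold. In all, 7 members rose, 3 fell and 23 did not pass the threshold, a Benjamini-Hochberg adjusted p of 0.05 over the 13204 genes tested with edgeR. These 10 of 33 stand beside 48.4% called among all genes tested, 24.8% higher and 23.6% lower on western diet. By source, 6 of 7 macrophage-made members rose and none fell, 0 of 20 hepatocyte-made members rose and 2 fell, and 1 of the 6 others rose and 1 fell. The median log2 difference, western diet minus chow, was 1.29 over the macrophage-made and −0.075 over the hepatocyte-made members, beside −0.0091 over all genes tested. The diets did not overlap in 6 members, with western diet higher in 5 (6.98% of all genes tested) and lower in 1 (5.05% of all genes tested). Each of the 10 calls held in 17 fits without 1 library and in 10 other alternatives.

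**Figure D1:**
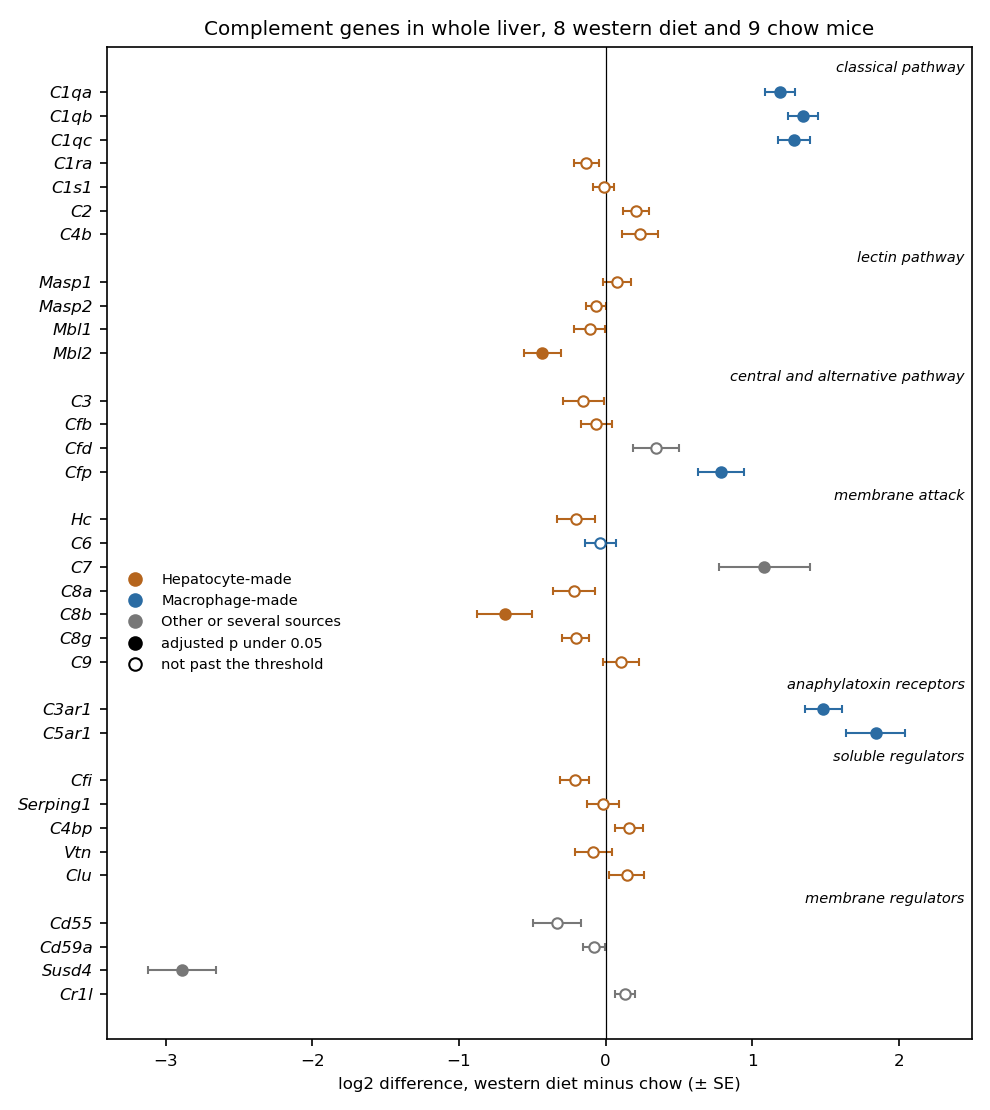
Log2 difference, western diet minus chow, with its SE for the 33 complement genes, ordered by role and coloured by source; filled points passed an adjusted p of 0.05 and open points did not. The macrophage-made genes other than C6 lie between 0.79 and 1.84, and the hepatocyte-made genes lie between −0.69 and 0.23.

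The 3 chains of C1q, which together form the molecule that recognises immune complexes and dying cells, moved alike. C1qa had 142, 184 and 209 CPM (lowest, median and highest of 8) on western diet and 57.6, 79.2 and 95.5 CPM (of 9) on chow. C1qb had 152, 177 and 228 CPM against 50.7, 76.1 and 82.3 CPM, and C1qc had 150.1, 183 and 225 CPM against 51.9, 81.0 and 82.8 CPM. In each chain the lowest western diet library was above the highest chow library. C1qa rose 2.28-fold (log2 difference 1.19 ± 0.10, ± SE; edgeR adjusted p = 2.78e-08), C1qb 2.55-fold (1.35 ± 0.10, adjusted p = 6.17e-09) and C1qc 2.44-fold (1.29 ± 0.11, adjusted p = 1.88e-08). On the mouse assembly GRCm38.p6, also called mm10, the genes are neighbours on chromosome 4, with C1qb at 136880126 to 136886200, C1qc at 136889801 to 136892936 and C1qa at 136895916 to 136898844, spans of whole genes with exons and introns.

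Both receptors of the released peptides rose. C3ar1, the receptor of C3a, had 23.8, 30.2 and 41.4 CPM (lowest, median and highest) on western diet and 6.30, 11.4 and 12.9 CPM on chow, a 2.80-fold rise (log2 difference 1.48 ± 0.13, adjusted p = 2.46e-08). C5ar1, the receptor of C5a on neutrophils and macrophages, had 6.32, 14.7 and 16.9 CPM against 2.32, 3.58 and 6.22 CPM, a 3.59-fold rise (1.84 ± 0.20, adjusted p = 5.63e-07). No western diet library overlapped the chow libraries in either receptor, although C5ar1 in western diet replicate 3, at 6.32 CPM, lay just above chow replicate 2 at 6.22 CPM. The next lowest western diet library had 12.6 CPM.

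Properdin (Cfp), a plasma protein of myeloid cells that stabilises the C3 convertase of the alternative pathway, rose less. Its levels were 46.8, 59.6 and 113 CPM on western diet and 26.4, 41.0 and 47.5 CPM on chow (lowest, median and highest), a 1.73-fold rise (log2 difference 0.79 ± 0.16, adjusted p = 4.99e-04). In 7 of 8 western diet libraries Cfp was above every chow library. C6, a pore component listed with the macrophage genes because Kupffer cells express it, was the macrophage-made member that did not pass: it had 242, 296 and 362 CPM against 271, 289.7 and 418 CPM (−0.04 ± 0.10, adjusted p = 0.805).

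**Figure D2:**
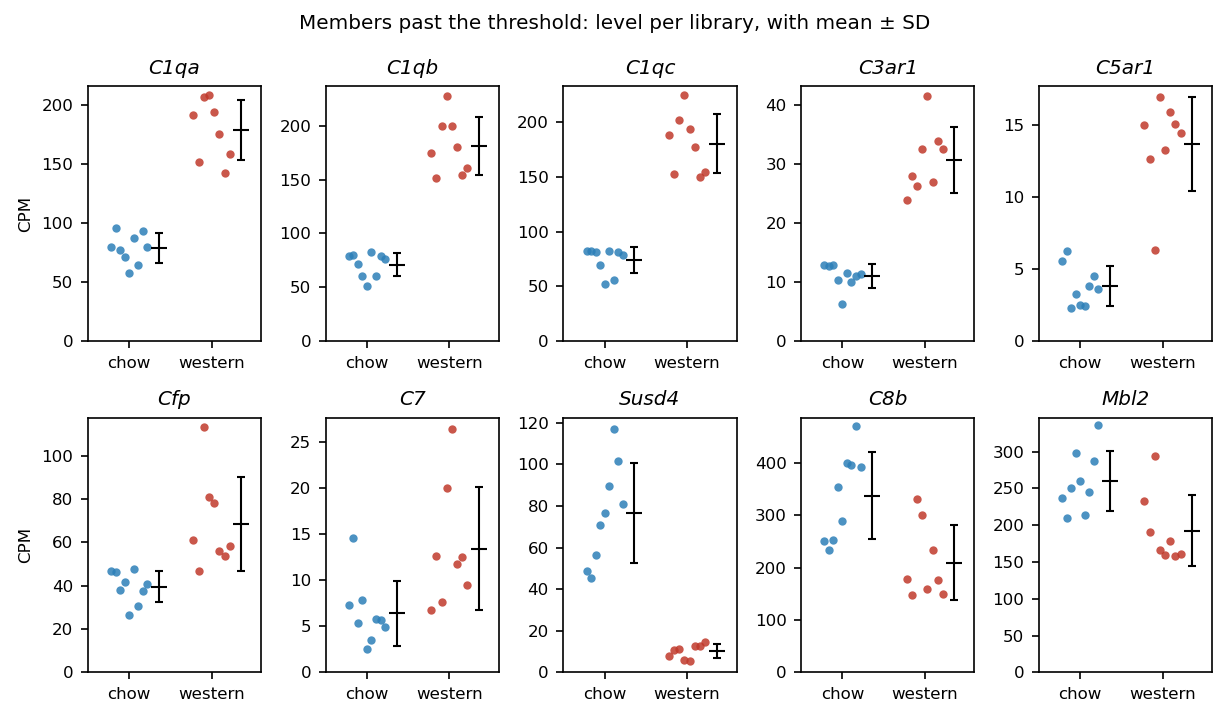
CPM of the 10 members past the threshold in each library (blue, 9 chow; red, 8 western diet), with mean ± SD as black bars. The diets do not overlap in C1qa, C1qb, C1qc, C3ar1, C5ar1 and Susd4, and they overlap in Cfp, C7, C8b and Mbl2.

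Markers of macrophages were higher in the same libraries. All 6 general macrophage markers rose, with a summed level of 622 to 965 CPM on western diet and 239 to 414 CPM on chow, and of 7 markers of resident Kupffer cells 3 rose, 3 fell and 1 did not pass (557 to 1043 against 412 to 689.8 CPM). The 3 tested neutrophil markers of 5 also rose. All 5 together summed to 16.6 to 74.6 CPM on western diet and 5.98 to 12.7 CPM on chow. The other neutrophil markers, Ly6g and Retnlg, were at 0 in some libraries and were not tested; they are named here after their values were seen. Western diet replicate 3 held the most of the general macrophage and neutrophil markers, the most Cfp and the least C5ar1 among western diet libraries. The part that numbers of these cells have in the rises was not tested.

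Ratios of counts of 2 genes within a library do not depend on the scaling, and 6 were compared. The pairs were chosen after the levels of their genes were seen, so the p-values of the ratios are no evidence beyond the tests of the single genes. C1qa over Csf1r, the receptor of the macrophage growth factor, was 0.719, 0.804 and 1.17 (lowest, median and highest) on western diet and 0.683, 0.756 and 1.12 on chow, with a log2 difference of 0.085 ± 0.10 (± SE; exact permutation test over all 24310 labellings, two-sided, adjusted over 6 ratios, p = 0.436). The test did not separate the diets for this pair. C1qa over C6 was 0.451, 0.574 and 0.801 against 0.209, 0.246 and 0.338, 2.34-fold higher without overlap (adjusted exact p = 2.47e-04, from the smallest p the labellings allow). The ratio of Cfp to Csf1r was lower, 0.253, 0.297 and 0.473 against 0.332, 0.400 and 0.451 (1.27-fold, adjusted exact p = 0.0151), in 6 of the 8 western diet libraries below every chow library. Summed over the 3 chains, C1q was at 0.631 to 0.873 of the general macrophage markers on western diet and 0.623 to 0.754 on chow, and at 0.622 to 0.801 against 0.366 to 0.461 of the resident Kupffer markers. Of those 7 Kupffer markers, which include Vsig4 and Fcna, 3 rose and 3 fell, so this last ratio depends on which markers are listed.

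**Figure D3:**
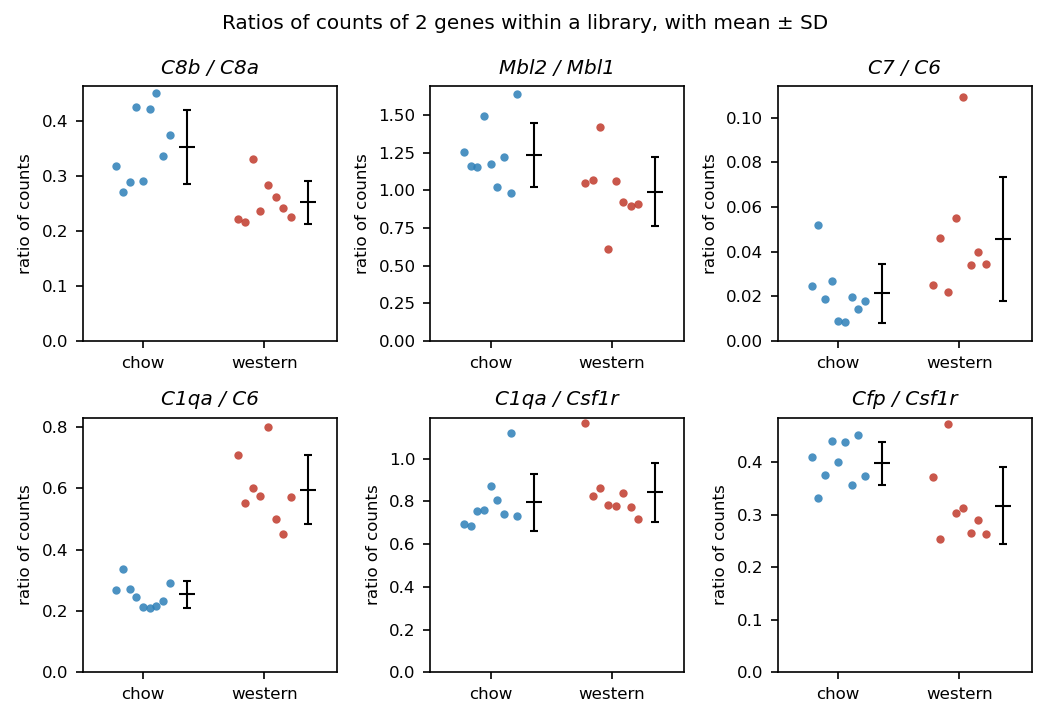
Ratio of the counts of 2 genes within each library for 6 pairs (blue, 9 chow; red, 8 western diet), with mean ± SD as black bars. C1qa over C6 separates the diets without overlap, while C1qa over Csf1r spans 0.719 to 1.17 on western diet and 0.683 to 1.12 on chow.

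The proteases and substrates of the classical pathway that hepatocytes make did not pass the test. C1ra and C1s1, the proteases carried by C1q, had medians of 223 against 249.8 CPM and 612 against 609 CPM, western diet against chow. Their near copies C1rb and C1s2 stood at medians under 3 CPM, and reads can be shared with them. C2, which is cleaved to form the C3 convertase, had 177, 187 and 234 CPM on western diet and 128, 159 and 211 CPM on chow (lowest, median and highest; log2 difference 0.20 ± 0.09, adjusted p = 0.0636), and it passed without chow replicate 7, 8 or 9 (adjusted p of 0.0467, 0.0481 and 0.0188). C4b, the partner of C2 in that convertase, had 1307, 1572 and 2580.2 CPM against 1194, 1449.6 and 1837 CPM (0.23 ± 0.12, adjusted p = 0.123). In C4a, its near copy, the levels were 23.7, 42.6 and 85.8 CPM against 14.2, 27.4 and 42.8 CPM (0.66 ± 0.27, adjusted p = 0.0513), with a pass in 5 of 17 fits without 1 library, and the split of reads between the copies is uncertain. C2 lies beside Cfb on chromosome 17, at 34862602 to 34882100 after 34856374 to 34862514, with C4b at 34728139 to 34743902.

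In the lectin pathway Mbl2, a mannose-binding lectin secreted by hepatocytes, fell. It had 159, 172 and 293 CPM on western diet and 209.7, 250.4 and 337 CPM on chow (lowest, median and highest; log2 difference −0.43 ± 0.13, adjusted p = 0.00762), and 6 of 8 western diet libraries were below every chow library. Western diet replicate 3 held the highest level of its diet. The other lectin Mbl1 had 151, 186 and 273 CPM against 181, 205 and 292 CPM (−0.11 ± 0.11, adjusted p = 0.416). Mbl2 over Mbl1 was 0.611, 0.986 and 1.42 against 0.983, 1.18 and 1.64, 1.26-fold lower (exact permutation test, adjusted p = 0.0337), and this call was lost in 7 of the 17 tests that left out 1 library, with adjusted p up to 0.0774 without western diet replicate 4. Masp1 and Masp2, the proteases of the lectins, had log2 differences of 0.08 ± 0.10 and −0.07 ± 0.07 (adjusted p = 0.52 and adjusted p = 0.471).

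C3, the protein on which the pathways meet, did not pass. It had 2704, 3507 and 5679.8 CPM on western diet and 3427, 4267 and 5627 CPM on chow (lowest, median and highest; log2 difference −0.15 ± 0.14, adjusted p = 0.392). Cfb, which forms the alternative C3 convertase, had 874, 1035 and 1477 CPM against 939.9, 1122 and 1360.0 CPM (−0.06 ± 0.11, adjusted p = 0.648). Cfd, the protease that cleaves factor B and is made mainly by fat cells, had 41.5, 62.1 and 89.7 CPM against 32.2, 51.3 and 68.0 CPM (0.34 ± 0.16, adjusted p = 0.0834). Cfd passed without western diet replicate 3 or 8 or chow replicate 2 (0.40 to 0.42, adjusted p of 0.0317 to 0.0488). Of 5 fat cell markers 3 fell, 1 rose and 1 did not pass, with a median log2 difference of −0.44. Their summed level was 169 to 277 CPM on western diet and 146 to 264 CPM on chow. That sum was mostly Plin4, at 452.5 to 2071 counts per library, while each other marker had at most 232.5 counts.

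Among the genes of the membrane attack pore C8b fell and C7 rose. C8b, the chain of C8 that binds the growing complex, had 148, 178 and 331 CPM on western diet and 234, 354 and 470.4 CPM on chow (lowest, median and highest; log2 difference −0.69 ± 0.19, adjusted p = 0.0056), and 6 of 8 western diet libraries were below every chow library. The exceptions were western diet replicates 3 and 4, at 331 and 302 CPM. C8a and C8g, the other chains of C8, had log2 differences of −0.21 ± 0.14 and −0.20 ± 0.09 (adjusted p = 0.23 and adjusted p = 0.0777), and C8g fell without western diet replicate 1 (−0.27, adjusted p = 0.011). C8b over C8a was 0.216, 0.240 and 0.331 against 0.272, 0.338 and 0.453, 1.39-fold lower with overlapping ranges (exact permutation test, adjusted p = 0.00592). The genes are neighbours on chromosome 4, with C8b at 104766317 to 104804548 and C8a at 104815679 to 104876487.

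C7, a pore component made by cells of the stroma and vessels, was low. It had 6.80, 12.2 and 26.5 CPM on western diet and 2.52, 5.70 and 14.6 CPM on chow (lowest, median and highest), a 2.12-fold rise (log2 difference 1.08 ± 0.31, adjusted p = 0.00763), with 2 western diet libraries above every chow library. The highest library of each diet was the one with pancreatic transcripts; without both, the log2 difference was 1.12 (adjusted p = 8.14e-04). The summed stellate cell markers were 679 to 1222 CPM on western diet and 498 to 621 CPM on chow, and their part in the rise was not tested. C7 over C6 was 2.19-fold higher (exact permutation test, adjusted p = 0.0151); the genes lie on chromosome 15, C6 at 4727067 to 4804045 and C7 at 4987750 to 5063773. Hc, which encodes C5, had 974, 1199.6 and 1794 CPM against 1149.8, 1405 and 2117 CPM (−0.20 ± 0.13, adjusted p = 0.204). C9, which polymerises into the pore wall, had 340.3, 438 and 733 CPM against 381, 446 and 591 CPM (0.11 ± 0.12, adjusted p = 0.497).

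None of the 5 soluble regulators passed. Cfi, the protease that inactivates C3b and C4b, had 472, 557 and 789 CPM on western diet and 577, 687 and 837 CPM on chow (lowest, median and highest; log2 difference −0.21 ± 0.10, adjusted p = 0.0858). C4bp, a cofactor of that protease, had 484, 599.8 and 869 CPM against 503, 576 and 654 CPM (0.16 ± 0.10, adjusted p = 0.189). Serping1, the inhibitor of C1r and C1s, and vitronectin (Vtn) and clusterin (Clu), which keep the pore from inserting, had log2 differences of −0.02 ± 0.11, −0.09 ± 0.13 and 0.14 ± 0.12 (adjusted p = 0.9, adjusted p = 0.605 and adjusted p = 0.333).

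Of the 4 membrane regulators Susd4 fell. Susd4, a membrane protein with sushi domains that inhibits complement, had 5.53, 11.1 and 14.7 CPM on western diet and 45.6, 76.7 and 117 CPM on chow (lowest, median and highest; log2 difference −2.89 ± 0.23, adjusted p = 3.4e-08). All 8 western diet libraries were below all 9 chow libraries, and Susd4 fell 7.41-fold. The gene spans chromosome 1, 182764044 to 182896596. Cd55, which speeds the decay of convertases, had 11.9, 20.1 and 33.5 CPM against 20.1, 24.2 and 30.1 CPM (−0.33 ± 0.16, adjusted p = 0.104). Western diet replicate 3 held its highest level, and without that library Cd55 fell (−0.47, adjusted p = 0.00767). Cd59a, which blocks C9, had a log2 difference of −0.08 ± 0.07 (adjusted p = 0.396), and Cr1l, the rodent regulator of C3 convertases also called Crry, of 0.13 ± 0.07 (adjusted p = 0.103; without western diet replicate 1, 0.17 and adjusted p = 0.0198).

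The hepatocyte-made members shifted together from library to library. All 33 members together took 1.49% to 2.33% of a western diet library and 1.52% to 2.05% of a chow library. In western diet replicate 4, 16 of the 20 had their highest western diet level, and in replicate 5, 13 had their lowest. In chow replicate 8, 14 of the 20 had their highest chow level. The coefficient of variation was higher on western diet than on chow in 18 of the 20, with medians of 20.7% and 11.8%. It was higher in 46.7% of all genes tested and in 60.8% of the 1632 genes whose mean CPM was at least that of the lowest of the 20. Library totals also spread more on western diet (3604212 to 8818385.5 counts) than on chow (5231165.5 to 9071908.5 counts), and these genes went with the total, as given below. The part of the totals in this spread was not tested. Among those 1632 genes 57.3% were called, 7.78% higher and 49.5% lower on western diet, beside 0 and 2 of the 20. Set against the hepatocyte markers, the summed hepatocyte-made members were at 0.922 to 1.46 on western diet and 0.805 to 1.11 on chow. The markers in this ratio had a lower median sum on western diet, 13301 CPM against 16334 CPM on chow.

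**Figure D4:**
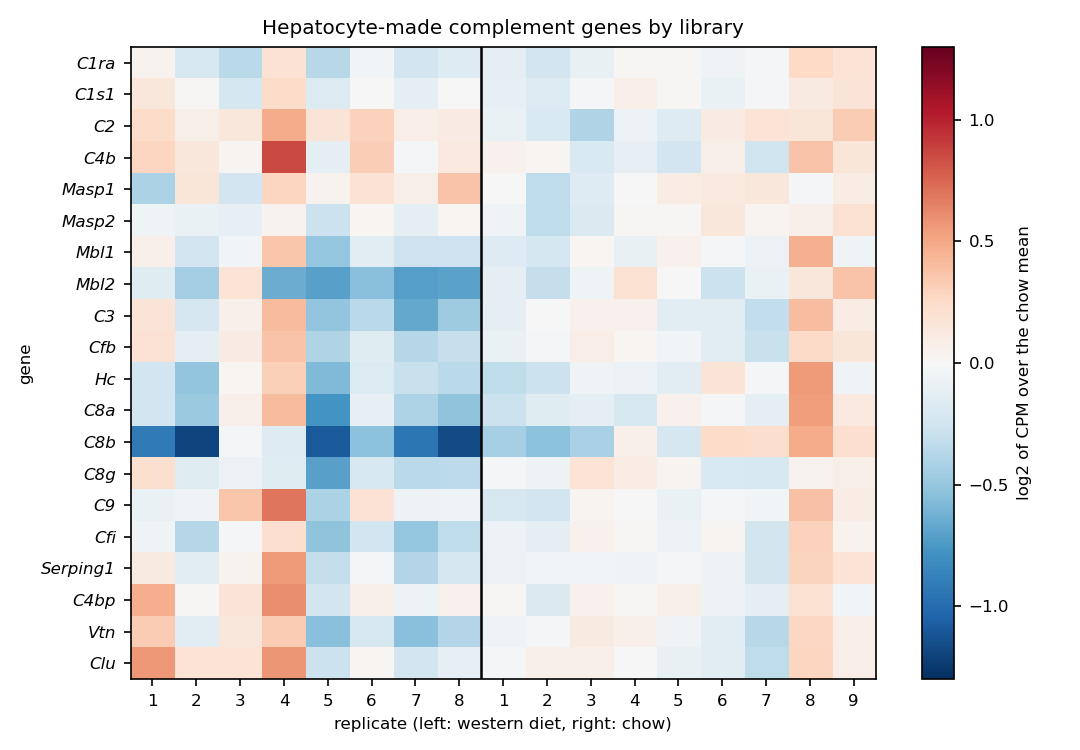
Log2 of CPM over the mean of the chow libraries for the 20 hepatocyte-made members (rows, by role) in 8 western diet libraries (left) and 9 chow libraries (right). Western diet replicate 4 and chow replicate 8 are red in most rows, western diet replicate 5 is blue in most, and C8b has the deepest blue cells, in western diet replicates 2 and 8.

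Levels of these genes went with the size of the library. C3 was lower in libraries with more counts, on western diet (Pearson's r = −0.86, exact permutation p = 0.0066; Spearman's rho = −0.95, exact p = 0.00114; n = 8) and on chow (r = −0.90, exact p = 0.00195; rho = −0.90, exact p = 0.00203; n = 9). Adjusted over the 2 relations p was 0.0066 and 0.0039 for r, and 0.00203 for rho in both diets. Without the 2 libraries farthest from the median total, r was −0.91 and −0.75. The relation was examined after the values were seen, and the total is also the divisor of a CPM. Over the 20 hepatocyte-made members the median r with the library total was −0.60 on western diet and −0.48 on chow, beside −0.26 and −0.15 over the 1632 genes of at least their lowest CPM and 0.063 and 0.011 over all genes tested. Over the 7 macrophage-made members it was −0.25 and −0.14. The gene with the most counts held at most 0.681% of a library and albumin (Alb) 0.302% to 0.507%; whether duplicate reads were removed is not given in the sources used here. Removal of duplicates would compress the levels and differences of genes with many reads, the hepatocyte-made members among them; its part in their values was not tested, and a member that did not pass is not thereby shown to be equal between the diets. With the log2 library total as a covariate, an alternative chosen after seeing the data in which 3494 of 13927 genes fell, 6 of the 20 fell in place of 2, adding C3 (log2 difference −0.25, adjusted p = 0.00909), C8g (−0.27, adjusted p = 0.00147), Cfi (−0.27, adjusted p = 0.0041) and Vtn (−0.18, adjusted p = 0.0128), while the 6 macrophage-made rises, C7 and Susd4 kept their calls. Without western diet replicate 4, where 2934 of 13259 genes fell, 5 of the 20 fell, adding Hc (−0.29, adjusted p = 0.0482), C8a (−0.33, adjusted p = 0.0385) and Cfi (−0.28, adjusted p = 0.014).

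**Figure D5:**
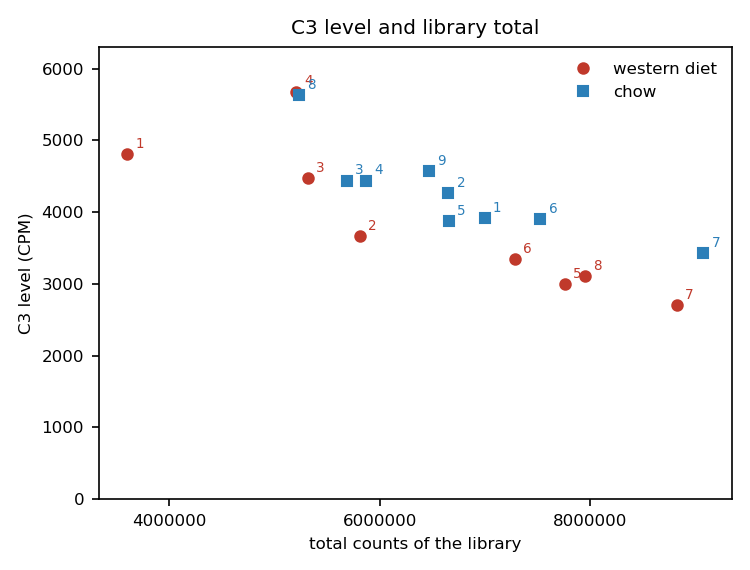
CPM of C3 against the total counts of the library, with replicate numbers beside the points (red circles, 8 western diet; blue squares, 9 chow). In both diets C3 is lower in larger libraries, with r of −0.86 and −0.90.

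Other genes of the pathway were taken from a list of 33 that are not among the members; 32 were in the files, 25 were tested, and 8 rose, 6 fell and 11 did not pass. The 14 called of 25 stand near the 48.4% called among all genes tested. The chains of the complement receptors of leukocytes, which bind the C3 fragment iC3b, rose: Itgax, at 20.1, 33.9 and 45.4 CPM against 2.32, 5.38 and 11.2 CPM, 5.69-fold (adjusted p = 5.31e-08), Itgam 2.62-fold and their shared chain Itgb2 2.68-fold. Vsig4, the C3b receptor of Kupffer cells, rose 1.94-fold (63.8 to 128 CPM on western diet and 35.9 to 56.3 CPM on chow). In these 4 genes the western diet libraries lay wholly above the chow libraries, as in 6.98% of all genes tested. C5ar2, the other receptor of C5a, rose 1.44-fold (adjusted p = 0.00403).

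Recognition molecules outside the members moved both ways. Apcs, serum amyloid P, a pentraxin of hepatocytes that binds C1q, rose 2.13-fold (edgeR adjusted p = 0.00534). Its lowest, median and highest levels were 138, 207 and 604 CPM on western diet and 63.9, 100.3 and 194 CPM on chow. The 604 CPM was in western diet replicate 4, and the next highest western diet library had 243 CPM. In fits without 1 library the log2 difference of Apcs was 0.757 to 1.22, with edgeR adjusted p up to 0.0107. The lectin Colec11 rose 1.62-fold without overlap (edgeR adjusted p = 2.88e-06). The ficolin Fcna of Kupffer cells was 1.68-fold lower without overlap (39.2 to 61.4 against 67.1 to 89.8 CPM, adjusted p = 2.05e-06).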

How the data were processed

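The authors deposited 1 table per library with an expected count for each gene symbol; its values move by 0.5 and carry no scaling. Per the submitters' processing notes, reads were handled with FastQC, MultiQC, HOMER and STAR 2.4.1c on the assembly mm10, without the role of each tool. No source used here gives their options, strandedness, gene annotation or handling of duplicates, so overlapping genes and near copies can share reads. Of 24940 genes, 3 had no value and were left out; values were rounded to whole counts.

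The members and lists were chosen with earlier results of these data known. edgeR 4.0.16 (R 4.3.3) was used with filterByExpr, which left 13204 genes, TMM factors, robust dispersions and glmQLFTest on diet alone, two-sided, with Benjamini-Hochberg adjustment over all genes. Log2 differences used a prior count of 0.125, and the SE is the difference over the square root of F. Each library was taken as 1 mouse, since the series describes 8 and 9 mice; totals per library were 3604212 to 9071908.5 counts. All 33 members may be named; of the other complement genes, those past the threshold with a log2 difference of at least 1 in size and up to 8 more. Positions are from RefSeq for GRCm38.p6, in which all 33 members matched by symbol. Alternatives were limma-voom (limma 3.58.1), DESeq2 1.42.0, other scalings and filters, and leaving out libraries. Ratios and relations were computed in Python 3.11.15 with numpy 2.4.6. The edgeR fit and the permutation test were tested on simulated data. Promoter motifs were not analysed here, and some genes of the pathway are not reported here.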

Additional observations from a re-analysis of the deposited data

Results flagged for a closer look

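Each member was checked in each diet for a library far from the others (the gap to the nearest library over the range of the diet, against Dixon's 95% value). Of 66 such groups 10 had one, where chance gives about 1 in 20 for a single group. The groups are not independent, since the hepatocyte-made members shifted together, so the 10 cannot be read as an excess over chance. Chow replicate 8 stood highest in 5 hepatocyte-made genes: Hc at 2117 CPM (next 1629 CPM), C8a at 1393 CPM (next 1047 CPM), C9 at 591 CPM (next 487 CPM), Cfi at 837 CPM (next 708 CPM) and Mbl1 at 292 CPM (next 221 CPM). Western diet replicate 4 stood highest in C4b at 2580.2 CPM (next 1777 CPM) and Serping1 at 1065 CPM (next 787 CPM). These libraries held 5231165.5 and 5207055.5 counts. Chow replicate 2, with pancreatic transcripts, stood highest in C7 at 14.6 CPM (next 7.89 CPM). Chow replicate 5 stood lowest in C3ar1 at 6.30 CPM and also held the lowest summed general macrophage markers of all libraries, 239 CPM. Western diet replicate 3 stood lowest in C5ar1 at 6.32 CPM (next 12.6 CPM).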

How the results depend on the processing

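The 10 called members were past the threshold in the same direction in 170 of 170 fits that left out 1 library and in 100 of 100 values of 10 other alternatives. With library size alone the median of all genes moved from −0.0091 to 0.12 in log2 and the share of rises among all calls from 51.2% to 73.5%; there 13 members rose in place of 7, with 4 hepatocyte-made (C2, C4b, C4bp and Clu) and 3 of the other members, and differences near 0 turned positive, in C1s1 (0.11), C6 (0.087), Cfb (0.054), Masp2 (0.058), Mbl1 (0.0100), Serping1 (0.099), Cd59a (0.047) and Vtn (0.030). With limma-voom 1 hepatocyte-made member rose (C2, adjusted p = 0.0469) and 2 of the other members fell (Cd55, adjusted p = 0.0468). With the library total as a covariate 7 members fell, 6 of them hepatocyte-made. Without the 2 libraries with pancreatic transcripts Serping1 was at 0.017. Leaving out 1 library gave 7 to 8 rising and 3 to 6 falling members, 0 to 1 and 2 to 5 among the hepatocyte-made, and 1 to 2 in either direction among the other members; it moved C1s1 from −0.050 to 0.017, C6 from −0.075 to 0.029, C9 from −0.0012 to 0.17 and Serping1 from −0.12 to 0.031. Relative to the general macrophage markers, the macrophage-made members were at −0.44 in log2 by sums and at −0.16 by means of log2(CPM + 1); without C6, which did not pass and is a large part of the sum, they were at 0.091, an alternative chosen after seeing the data. No paired analysis was possible because replicates were numbered by accession order and no label ties a mouse on one diet to a mouse on the other. Genes that did not pass the low count filter, such as Ly6g, were not tested. The cause of these changes was not tested beyond the number of libraries or genes that an alternative leaves out.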
